A study of Mus musculus with 5 samples.

Results

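Deposited peaks of H3K27me3, histone H3 trimethylated at lysine 27, were examined at the loci of 10 mouse genes. These encode subunits of the complex that adds this mark, enzymes that remove it, or subunits of a complex that opposes it. The genes were *Ezh1*, *Ezh2*, *Eed* and *Suz12* of Polycomb repressive complex 2 (PRC2), the H3K27 demethylases *Kdm6a* and *Kdm6b*, and *Arid1a*, *Arid1b*, *Smarca4* and *Smarcb1* of the SWI/SNF remodelling complex. Each locus comprised the annotated gene (GENCODE M21, GRCm38) and 5 kb of flank beyond either end. All 10 genes were found in the annotation, of 21938 protein-coding genes in all. Chromatin came from the mesenchyme of molars from wildtype mice (strain C57BL/6, postnatal day 3) after the epithelium had been taken off, and no library came from a mutant or treated animal. The mark was profiled in 2 libraries, beside 2 libraries of input (chromatin that was not immunoprecipitated) and 1 made with IgG, a nonspecific antibody. The peaks came as 3 lists, namely H3K27me3 replicate 1 against input (the replicate 1 list), the same H3K27me3 library against IgG (the IgG-called list), and H3K27me3 replicate 2 against its own input (the replicate 2 list). The IgG-called list is therefore not a further replicate, and since the labels name neither animals nor pools, an SD is the spread of 2 libraries.

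PRC2 methylates H3K27. Its catalytic subunit is either Ezh2 or Ezh1, Eed binds the methylated histone tail and stimulates the enzyme, and Suz12 holds the complex together. Kdm6a (also called Utx) and Kdm6b (Jmjd3) remove the methyl groups. SWI/SNF, also called BAF, uses ATP to move or evict nucleosomes and can displace Polycomb proteins from chromatin. In it, Smarca4 (Brg1) is an ATPase, Arid1a and Arid1b are alternative large subunits, and Smarcb1 is a core subunit. H3K27me3 typically lies as broad domains over CpG-rich promoters of silent developmental genes, while genes of the Polycomb and SWI/SNF machinery are widely expressed. The comparison asked whether these genes, in tissue where the study examined Ezh2 and Arid1a, carried peaks of the mark themselves. Peaks do not measure expression, and bulk tissue does not separate a mark in few cells from a weak mark in many.

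The lists held 22757, 24881 and 33379 peaks, called from 30369351 tags of replicate 1 and 49947919 tags of replicate 2 that remained after duplicate removal. The weakest peak in a list rested on a mean depth of 4 tags in replicate 1 and 6 tags in replicate 2, and 44.5%, 35.1% and 37.9% of peaks in the 3 lists were at that lowest depth. A replicate 2 peak overlapped 2.85% of the peaks in the replicate 1 list, and an IgG-called peak 51.0% of them. The lists thus held few positions in common between replicates. At least 1 peak lay at 5, 4 and 6 of 7 dental mesenchyme marker genes in the 3 lists and at 3, 3 and 2 of 5 dental epithelium marker genes, compared with 25.0%, 25.9% and 35.7% of all protein-coding loci. The marker loci ranged in length up to the 329 kb of *Runx2*. Since peaks do not measure expression, these counts are no check of the labelled tissue.

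The 10 loci held 5, 2 and 6 peaks in the replicate 1, IgG-called and replicate 2 lists, none with another peak of its list within 5 kb. Most peaks of each list were alike in this, since 34.4%, 37.7% and 19.3% had such a neighbour. *Arid1b* and *Smarca4* were the 2 genes with a peak in both replicates, which 15.7% of all protein-coding loci also had. At both genes the replicates' peaks lay in different places. Over the whole replicate 1 list, a replicate 2 peak overlapped 2.85% of peaks. *Ezh1*, *Suz12* and *Kdm6b* had no peak in any list. No gene had a peak within 1 kb of an annotated transcript start in both replicates, compared with 1.91% of all protein-coding genes. The sequences below are 7 of the 11 distinct peak intervals at the 10 genes, including the pair that did not overlap at *Smarca4*, read from GRCm38.p6 on the plus strand, with each CpG in capitals because CpG-rich DNA is where H3K27me3 domains usually form. The last 2 lines give, for comparison, a *Cdkn2a* peak that was called in all 3 lists, and the 250 bases just upstream of the annotated 5′ end of *Ezh2* on the gene's own (minus) strand. That *Cdkn2a* peak holds 2.09 CpG per 100 bases, more than 78.7% of the replicate 1 list, and does not stand for the other peaks at its locus.
*Ezh2* intron, replicate 1, chr6:47579941-47579986: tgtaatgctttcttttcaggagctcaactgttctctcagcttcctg
*Kdm6a* intron, replicate 2, chrX:18231515-18231585: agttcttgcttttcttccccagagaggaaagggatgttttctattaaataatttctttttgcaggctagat
*Arid1a* intron, replicate 1, chr4:133706564-133706707: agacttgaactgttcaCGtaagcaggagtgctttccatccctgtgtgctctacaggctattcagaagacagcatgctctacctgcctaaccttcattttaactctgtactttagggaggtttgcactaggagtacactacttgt
*Arid1b* intron, replicate 1 and IgG-called, chr17:5035594-5035768: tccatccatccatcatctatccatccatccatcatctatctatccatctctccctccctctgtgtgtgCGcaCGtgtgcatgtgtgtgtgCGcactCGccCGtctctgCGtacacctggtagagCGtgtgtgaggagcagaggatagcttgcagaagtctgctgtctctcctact
*Smarca4* intron, replicate 1, chr9:21693999-21694197: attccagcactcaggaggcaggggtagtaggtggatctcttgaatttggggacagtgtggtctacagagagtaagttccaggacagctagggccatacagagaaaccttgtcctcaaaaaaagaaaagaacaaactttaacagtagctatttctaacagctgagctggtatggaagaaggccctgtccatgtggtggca
*Smarca4* intron, replicate 2, chr9:21662572-21662825: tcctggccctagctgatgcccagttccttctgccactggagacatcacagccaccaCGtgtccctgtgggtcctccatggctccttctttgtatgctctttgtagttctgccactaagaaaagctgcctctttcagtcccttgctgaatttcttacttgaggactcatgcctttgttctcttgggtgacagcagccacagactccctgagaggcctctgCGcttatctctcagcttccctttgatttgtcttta
*Smarcb1* intron, replicate 2, chr10:75916926-75917114: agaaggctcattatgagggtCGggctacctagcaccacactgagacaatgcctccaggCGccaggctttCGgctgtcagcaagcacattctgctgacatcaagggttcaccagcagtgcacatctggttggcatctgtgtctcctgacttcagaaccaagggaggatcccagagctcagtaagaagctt
*Cdkn2a* intron, replicate 1, chr4:89291181-89291371: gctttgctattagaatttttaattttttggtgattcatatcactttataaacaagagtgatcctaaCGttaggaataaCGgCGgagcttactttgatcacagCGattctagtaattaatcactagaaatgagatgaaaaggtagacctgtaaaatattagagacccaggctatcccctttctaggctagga
Upstream of *Ezh2*, chr6:47595342-47595591: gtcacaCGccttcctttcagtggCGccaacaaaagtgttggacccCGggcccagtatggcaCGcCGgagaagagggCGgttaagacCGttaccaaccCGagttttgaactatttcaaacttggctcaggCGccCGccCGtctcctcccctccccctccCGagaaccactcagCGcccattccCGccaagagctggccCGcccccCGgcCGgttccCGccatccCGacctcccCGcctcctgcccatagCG

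Of the 10 loci, 5 held a peak in the replicate 1 list (50%, 95% exact binomial interval 18.7% to 81.3%), compared with 25.0% of all protein-coding loci. In the IgG-called list 2 of 10 did (20%, interval 2.52% to 55.6%), compared with 25.9%. In the replicate 2 list 4 of 10 did (40%, interval 12.2% to 73.8%), compared with 35.7%. A peak in both replicates was found at 2 of 10 loci (20%, interval 2.52% to 55.6%), compared with 15.7% of all loci. The share over all loci was within the interval of the 10 genes in each case. These intervals cover counting error and treat genes as independent. A peak was present in replicate 1 but not replicate 2 at 3 genes (*Ezh2*, *Eed* and *Arid1a*), and in replicate 2 but not replicate 1 at 2 genes (*Kdm6a* and *Smarcb1*).

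Longer loci more often held a peak. Of the 10 loci, 5 were among the 5484 longest protein-coding loci, those above 55.1 kb, namely *Ezh2*, *Kdm6a*, *Arid1a*, *Arid1b* and *Smarca4*. Of these 5, 4 had a replicate 1 peak and 3 a replicate 2 peak, compared with 48.7% and 71.1% of all loci above that length. A peak in both replicates was found at 2 of the 5, compared with 40.0% of loci above that length. Among the 5 shorter loci, 1 had a replicate 1 peak (*Eed*) and 1 a replicate 2 peak (*Smarcb1*). When all protein-coding loci were split by length into 10 groups, the group with a median of 24.5 kb gave shares of 17.4% and 24.1%. The group with a median of 39.9 kb gave 22.9% and 35.9%. *Arid1b*, the only gene with more than 1 peak in a list, also had the longest locus of the 10, at 363 kb.

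**Figure D1:**
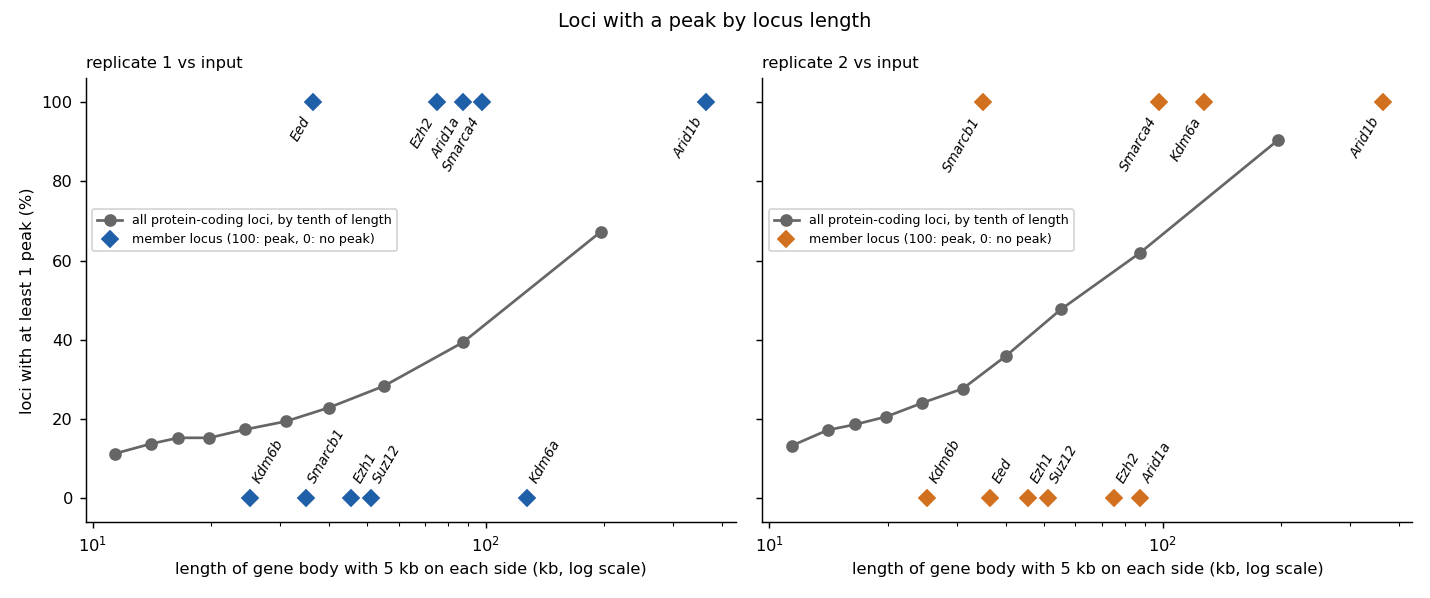
Share of protein-coding loci with at least 1 peak (y axis, %) against locus length (x axis, kb, log scale) in the replicate 1 list (left) and the replicate 2 list (right). Grey points are 10 groups of equal size into which all protein-coding loci were split by length, and diamonds are the 10 genes, at the top where the locus held a peak and at the bottom where it did not. In the group with the longest loci 67.3% held a replicate 1 peak and 90.3% a replicate 2 peak.

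Peaks per length were counted next. The 10 loci together spanned 0.944 Mb and held 5 replicate 1 peaks, 2 IgG-called peaks and 6 replicate 2 peaks. The density in the replicate 1 list was 5.29 peaks per Mb (95% exact Poisson interval 1.72 to 12.4), compared with 10.3 over all protein-coding loci. It was 2.12 in the IgG-called list (0.256 to 7.65), compared with 11.4, and 6.35 in the replicate 2 list (2.33 to 13.8), compared with 13.9. The point values were below those of all loci in the 3 lists. In the replicate 1 list the value over all loci was within the interval, while in the IgG-called and replicate 2 lists it was above the upper bound, by a small margin in replicate 2 (13.86 against 13.83). These intervals treat peaks as independent, although peaks cluster in the genome. The mean of the 2 replicates was 5.5 ± 0.707 peaks (SD, n = 2). The covered share of these loci averaged 0.101% ± 0.0317 (SD, n = 2), from 0.0790% in replicate 1 to 0.124% in replicate 2, and was 0.0378% with IgG as the control.

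Of the 13 peaks in the 3 lists, 11 were distinct intervals, since the peaks at *Eed* and *Arid1b* were called at the same bases against input and IgG. Introns held 11 of the 13, and the 2 at *Eed* lay beyond the 3′ end of the gene. None overlapped an exon or another annotated gene. Replicate 2 peaks overlapped 0 of the 5 replicate 1 peaks, compared with 2.85% of the whole replicate 1 list. IgG-called peaks overlapped 2 of the 5, compared with 51.0% of that list. The lowest depth of the list was the depth of 7 of the 13.

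**Figure D2:**
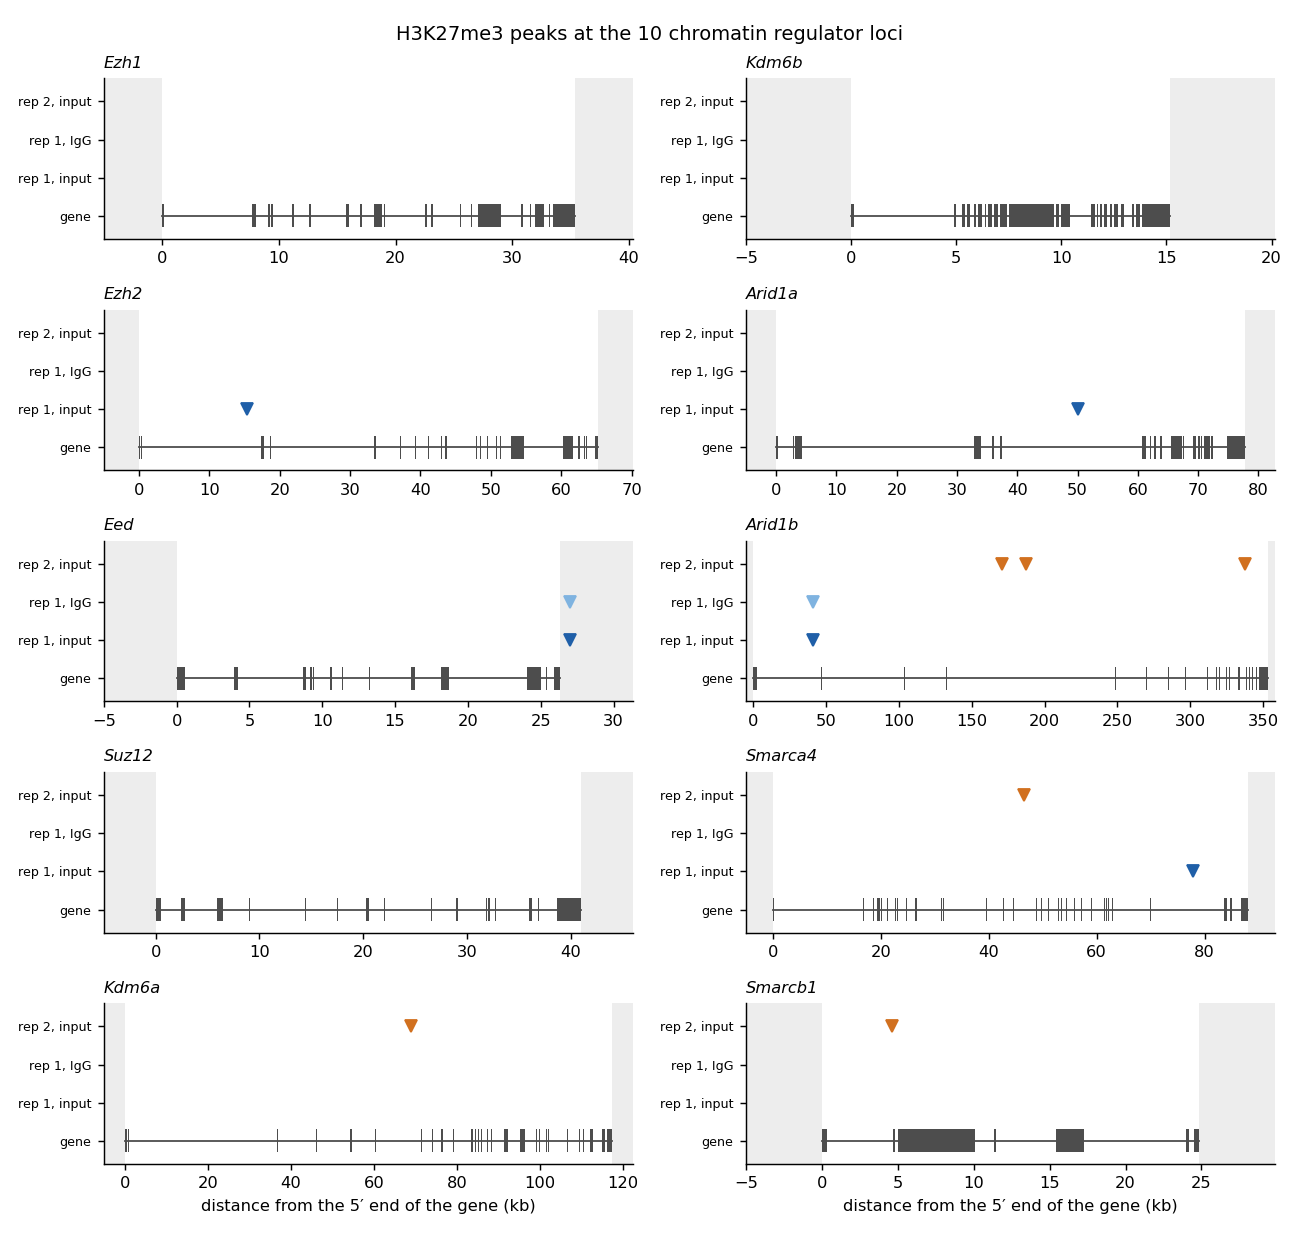
Peaks at the 10 loci, drawn by distance from the 5′ end of the gene in the direction of transcription (x axis, kb, a separate scale for each gene). Dark blocks are annotated exons, grey bands the 5 kb flanks, and triangles mark the centres of peaks in the replicate 1 (dark blue), IgG-called (light blue) and replicate 2 (orange) lists. The 5 replicate 1 peaks and 6 replicate 2 peaks lie at different positions, and *Ezh1*, *Suz12* and *Kdm6b* have none.

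Among the PRC2 genes, *Ezh2* (chr6:47530139-47595341, minus strand) had 1 peak in the replicate 1 list and 0 in the IgG-called and replicate 2 lists. This peak of 46 bp, the length of the modelled fragment, was 15.4 kb from the 5′ end of the gene and 1.93 kb from the closest annotated transcript start. Its pileup, the mean depth after scaling to the input, was 4.92, or 6.31 tags before scaling, and its fold enrichment over input was 3.74 with a −log10 p of 3.89. It ranked 31 of 22757 in the list by fold enrichment, the highest rank of any peak at the 10 genes. No peak of the replicate 1 list, this peak included, had a q of 0.05 or lower. The same H3K27me3 library gave no IgG-called peak there, and the nearest IgG-called peak was 32.4 kb away. The nearest replicate 2 peak was 36.6 kb away. The printed sequence has 0 CpG sites.

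*Eed* (chr7:89954654-89980983, minus strand) had 1 peak in the replicate 1 list, 1 in the IgG-called list and 0 in the replicate 2 list. Both calls covered chr7:89953861-89954042, 612 bp beyond the annotated 3′ end, at the lowest depth of 4 tags, with a fold enrichment of 2.60 over input and 2.63 over IgG. The nearest replicate 2 peak was 7.66 kb away, 3.45 kb outside the locus. *Ezh1* (chr11:101191115-101226463, minus strand), the alternative catalytic subunit, had 0 peaks in each list. The closest peak to its locus was 32.8 kb away in replicate 1, 32.7 kb in the IgG-called list and 68.9 kb in replicate 2. *Suz12* (chr11:79993106-80034123, plus strand) also had 0 in each list, with the closest peak 8.20 kb from the locus in both lists of replicate 1 and 28.5 kb in replicate 2. Of the 4 core PRC2 loci, 2, 1 and 0 thus held a peak in the replicate 1, IgG-called and replicate 2 lists, with 1 peak at each. Over all protein-coding loci the shares were 25.0%, 25.9% and 35.7%, and a difference from them was not tested with 4 genes.

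The demethylase genes had 1 peak between them in the 3 lists. *Kdm6a* (chrX:18162575-18279936, plus strand) had 0, 0 and 1 peaks. The replicate 2 peak of 71 bp had a pileup of 6.92 tags and a fold enrichment of 2.74, above that of 91.7% of its list, and repeat-masked bases made up 88.7% of its length. It was 14.5 kb from the closest transcript start. In replicate 1 the nearest peak was 1877 kb from the locus, and 828 kb in the IgG-called list. Over chromosome X, 20.3% of protein-coding loci held a replicate 2 peak, compared with 35.7% of all protein-coding loci. This share was not taken in the other lists. Whether the long distances there are particular to *Kdm6a* or shared by chromosome X was therefore not tested. *Kdm6b* (chr11:69398508-69413675, minus strand) had 0 peaks in each list, and the closest were 11.7 kb, 28.8 kb and 99.7 kb from its locus in the replicate 1, IgG-called and replicate 2 lists.

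Among the SWI/SNF genes, *Arid1a* (chr4:133679008-133756769, minus strand) had 1 peak in the replicate 1 list and 0 in the IgG-called and replicate 2 lists. The peak of 144 bp was intronic, 50.1 kb from the 5′ end and 14.1 kb from the closest transcript start. It was at the lowest depth of 4 tags, with a fold enrichment of 2.60 that 53.9% of the list exceeded. The nearest replicate 2 peak was 109.6 kb away, and the nearest IgG-called peak 49.7 kb. No peak of any list lay near an *Arid1a* transcript start, the closest being at 14.1 kb in replicate 1, 63.9 kb in the IgG-called list and 59.6 kb in replicate 2.

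*Arid1b* (chr17:4994332-5347656, plus strand), the alternative to *Arid1a* in the complex, had 1, 1 and 3 peaks. The replicate 1 and IgG-called peak was 41.3 kb from the 5′ end and had fold enrichments of 2.60 over input and 2.70 over IgG. It held 7 CpG sites, the most of any peak at the 10 genes, and 56% of it was repeat-masked. The replicate 2 peaks lay 170.5 kb, 187.1 kb and 337.3 kb from the 5′ end, with fold enrichments of 2.56, 2.42 and 2.41. The closest of these was 129.1 kb from the replicate 1 peak. *Smarca4* (chr9:21616169-21704230, plus strand) had 1, 0 and 1 peaks, both intronic. The replicate 1 peak had a fold enrichment of 2.72 and the replicate 2 peak one of 2.41, at its list's lowest depth of 6 tags, and 31.2 kb separated them. Both genes counted as having a peak in both replicates were thus counted through peaks that did not overlap. Such overlap was rare in general, at 2.85% of all replicate 1 peaks.

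*Smarcb1* (chr10:75896769-75921617, minus strand) had 0, 0 and 1 peaks. The replicate 2 peak of 189 bp had a fold enrichment of 2.53, above that of 68.1% of its list, and held 3 CpG sites. It was 354 bp from an annotated transcript start, the only one of the 13 peaks within 1 kb of a start. That start belongs to a shorter transcript within the gene, and the peak was 4.50 kb from the gene's 5′ end. In replicate 1 the nearest peak was 38.2 kb away, outside the locus.

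Ordered by the covered share of the locus, averaged over the replicates, *Smarcb1* (0.271% ± 0.383) came first, followed by *Eed* (0.250% ± 0.354), *Smarca4* (0.231% ± 0.0397) and *Arid1b* (0.114% ± 0.0934). *Arid1a* (0.0820% ± 0.116), *Ezh2* (0.0306% ± 0.0433) and *Kdm6a* (0.0279% ± 0.0394) followed (SD, n = 2 throughout), and the other 3 genes were at 0%. For 5 of the 7 the SD exceeded the mean because 1 replicate was at 0%. The share is relative to locus length. *Smarcb1* and *Eed*, with 1 peak each in 1 replicate, had the shortest loci of the 7, at 34.8 kb and 36.3 kb. Among neighbours in this order, the difference exceeded the larger SD for 1 pair, *Smarca4* (0.203% and 0.259% in the 2 replicates) and *Arid1b* (0.0482% and 0.180%). By mean number of peaks this pair stood the other way, with 1 at *Smarca4* over 98.1 kb and 2 at *Arid1b* over 363 kb. An SD of 2 libraries is also no test of a difference between genes.

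**Figure D3:**
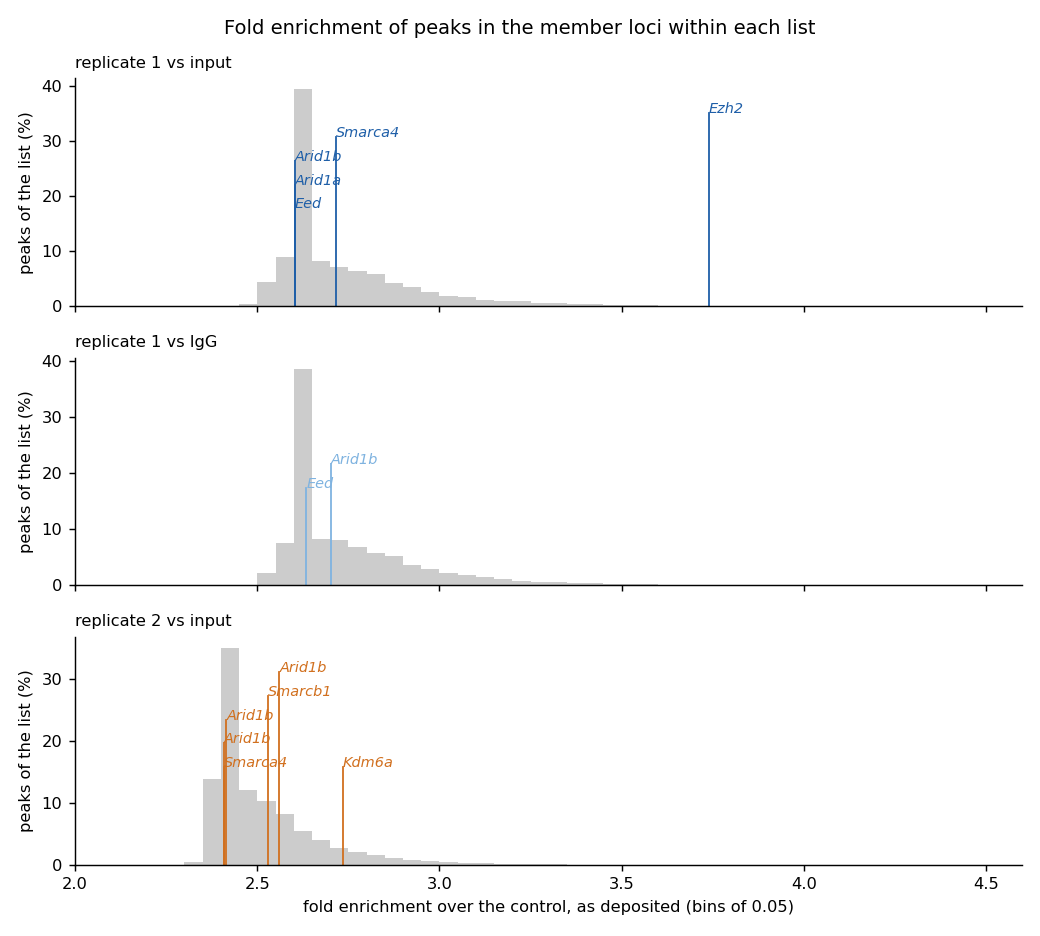
Fold enrichment of the peaks at the 10 genes (coloured lines, labelled by gene, with heights chosen for legibility) beside all peaks of the same list (grey bars, % of the list per bin of 0.05). The axis ends at 4.6, leaving out 0, 2 and 2 peaks of the replicate 1, IgG-called and replicate 2 lists. The *Ezh2* peak stands at 3.74, and the others lie between 2.41 and 2.74.

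Peaks within 1 kb of a transcript start were counted separately, since this is where the mark is usually found at silenced genes. In replicate 1, 0 of the 10 genes had such a peak against input and 0 against IgG, compared with 6.09% and 6.86% of all protein-coding genes. In replicate 2, 1 of 10 did (*Smarcb1*), compared with 7.41%. In both replicates 0 of 10 did, compared with 1.91%. A count of 0 of 10 allows a share of up to 30% (3 counts of 10), with an exact binomial upper bound of 30.8%, so a shortage relative to all genes was not detectable with 10 genes. The closest transcript start of each gene was a median of 13.6 kb from a replicate 1 peak, 33.8 kb from an IgG-called peak and 31.8 kb from a replicate 2 peak, while medians over all protein-coding genes were 47.5 kb, 45.3 kb and 24.8 kb. By these medians, peaks were closer than at the median gene in replicate 1 and farther in replicate 2. The distances of the 10 genes ranged from 1.93 kb to 1888 kb in replicate 1 and from 0.354 kb to 124 kb in replicate 2. Whether the medians differ was not tested.

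**Figure D4:**
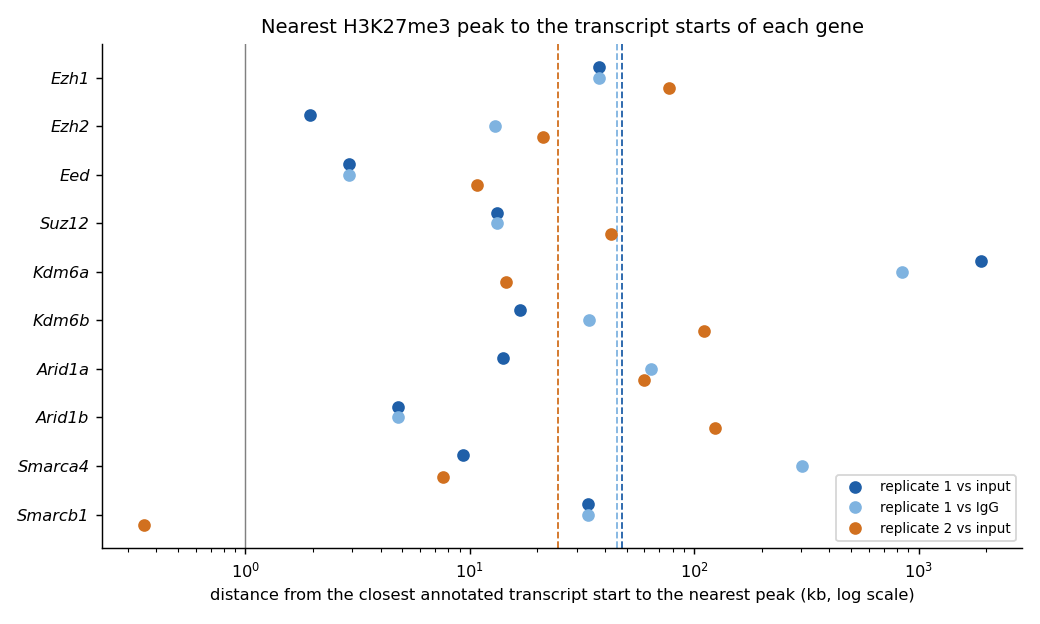
Distance from the closest annotated transcript start of each gene to the nearest peak (x axis, kb, log scale) in the replicate 1 (dark blue), IgG-called (light blue) and replicate 2 (orange) lists. Dashed lines are medians over all protein-coding genes, and the grey line marks 1 kb. The *Smarcb1* point of replicate 2, at 0.354 kb, is the only one under 1 kb.

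The promoters themselves were mostly CpG-rich. The ratio of observed to expected CpG within 1 kb of the 5′ end was above the median of all protein-coding genes (0.474) at 9 of the 10, with *Arid1b* the highest at 0.907. *Kdm6b* was the exception at 0.188, and its other annotated start reached 0.391. In the 250 bases upstream of the 5′ end, 9 of the 10 genes had between 11 and 37 CpG sites and *Kdm6b* had 3. The *Ezh2* sequence printed above holds 21. Peaks at the 10 genes held 0 to 7 CpG sites, and 3 of the 13 held none (*Ezh2*, *Kdm6a* and the replicate 1 peak of *Smarca4*). The median was 0.694 CpG per 100 bases in replicate 1 and 0.940 in replicate 2, compared with 0.730 and 0.704 over the whole lists. In the IgG-called list it was 2.55, over the 2 peaks at *Eed* and *Arid1b*, compared with 0.794.

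*Cdkn2a*, which encodes the cell cycle inhibitors p16Ink4a and p19Arf and is a known Polycomb target, shows what a densely marked locus looked like in the same lists. It held 15, 16 and 13 peaks, which covered 10.6%, 11.1% and 8.28% of the locus. It had a peak within 1 kb of a transcript start in each of the 3 lists, and 4 of its 15 replicate 1 peaks were overlapped by replicate 2 peaks. The neighbouring *Cdkn2b*, another cell cycle inhibitor gene, held 4, 5 and 2 peaks. Together these loci had 423, 467 and 334 peaks per Mb, with 95% exact Poisson intervals of 255 to 660, 289 to 715 and 187 to 551. None of these overlapped the interval of the 10 genes in the same list, but this is no test of a difference. The loci were chosen as a marked example with earlier results of these data known. The intervals also treat peaks as independent, although peaks at these adjacent loci are clustered. Replicate 1 fold enrichments spanned 2.54 to 3.09 at these loci and 2.60 to 3.74 at the 10 genes. Replicate 2 values spanned 2.39 to 3.23 and 2.41 to 2.74. The ranges of single-peak strength overlapped, while the numbers of peaks per Mb did not. Peaks at *Cdkn2a* and *Cdkn2b* had medians of 0.714, 0.739 and 1.56 CpG per 100 bases in the 3 lists. Those at the 10 genes had 0.694, 2.55 and 0.940. No CpG was held by 3 of 19, 4 of 21 and 2 of 15 peaks at *Cdkn2a* and *Cdkn2b*.

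No peak at the 10 genes had another peak of its list within 5 kb. The smallest distance to the next peak was 32.4 kb in replicate 1, 38.5 kb in the IgG-called list and 16.3 kb in replicate 2, the last between peaks within *Arid1b*. At *Cdkn2a* and *Cdkn2b* 18 of 19, 21 of 21 and 14 of 15 peaks had a neighbour within 5 kb, and over the whole lists 34.4%, 37.7% and 19.3% did.

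**Figure D5:**
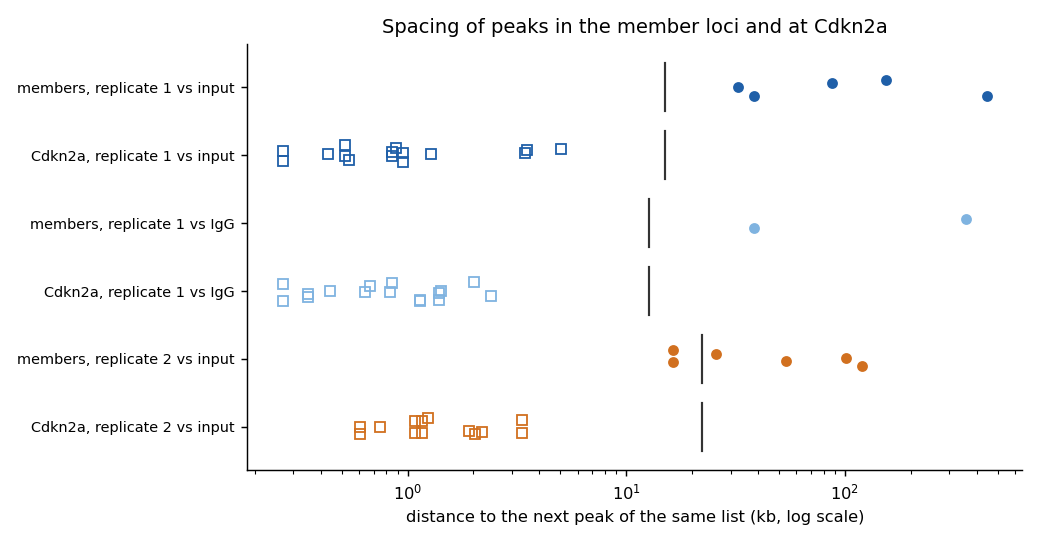
Distance from each peak to the next peak of the same list (x axis, kb, log scale) for the 10 genes (filled circles) and for *Cdkn2a* (open squares) in the 3 lists. Black bars are the medians over each whole list (15.0 kb, 12.7 kb and 22.1 kb). Peaks at the 10 genes are 16.3 kb or more from the next peak, and those at *Cdkn2a* are 5.01 kb or less.

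Other genes of the same machinery were taken from a list of 41 names, of which 40 were found in the annotation (*Ezhip* was not analysed here). A peak was present at 8, 11 and 17 of the 40 loci (20%, 27.5% and 42.5%) in the replicate 1, IgG-called and replicate 2 lists, compared with 25.0%, 25.9% and 35.7% of all protein-coding loci. In both replicates 3 loci (7.5%) had a peak, compared with 15.7%. Peaks within 1 kb of a start were found at 3, 2 and 1 of them and at 0 in both replicates, compared with 6.09%, 6.86%, 7.41% and 1.91% of all genes. Of 10 PRC2 accessory genes 1, 4 and 4 had a peak, and 0 did in both replicates. Of the remaining H3K27 demethylase and acetyltransferase genes (*Uty*, *Crebbp* and *Ep300*) 0, 0 and 2 of 3 had one. Of 27 further SWI/SNF genes 7, 7 and 11 had one, and the 3 with a peak in both replicates were all in this group.

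These 3 were *Smarca2*, *Arid2* and *Bcl11b*, all with loci above 55.1 kb, a length at which 40.0% of loci had a peak in both replicates. *Smarca2*, the alternative ATPase to *Smarca4*, had 2, 1 and 5 peaks, and *Arid2*, a subunit of the PBAF form of the complex, had 1, 0 and 2. *Bcl11b*, a zinc finger transcription factor that also associates with SWI/SNF, had 7, 7 and 4 peaks over a locus of 103 kb, and its mean covered share of 0.994% ± 0.222 (SD, n = 2) was the highest of the 40. Next came *Bcl7c*, a small SWI/SNF subunit gene, with 0, 0 and 2 peaks (0.655% ± 0.926), and *Epop*, an Elongin BC-binding PRC2 partner, with 2, 3 and 0 (0.467% ± 0.660). All 3 shares were above the 0.271% of *Smarcb1*, the highest of the 10 genes.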

How the data were processed

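Per the study's methods and the submitters' processing notes, reads were aligned to GRCm38 (mm10) with BWA, sorted with SAMtools and passed to MACS. Per the file headers, the authors called broad peaks with version 2.1.1.20160309 at a p-value cutoff of 0.005, kept 1 tag per position, scaled the larger library of each pair to the smaller, and did not pool libraries. Of the deposited values, pileup is a signal (mean depth over the peak after scaling), fold enrichment is a ratio to the control with a pseudocount of 1, and both p-values and q-values are −log10 values. Modelled fragments (46 bp and 71 bp in the 2 replicates) were shorter than the tags (49 bp and 74 bp). The authors deposited each list in 3 formats, which were checked to hold equal values for every peak.

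Peaks were intersected with gene loci (an overlap of at least 1 base) in Python 3.11.15 with pandas 2.3.3, scipy 1.17.1 and numpy 2.4.6, and coordinates are 1-based. The intersection code was tested on simulated data. Repeat-masked bases are the soft-masked bases of the RefSeq GRCm38.p6 sequence, from which the printed sequences were also read. There was 1 condition with 2 H3K27me3 libraries, so no test was run and values are descriptions; intervals cover counting error only. Named genes were the 10 genes, genes of the wider lists with a peak in both replicates or among the 3 highest mean covered shares, and *Cdkn2a* and *Cdkn2b*. A further comparison list is not reported here. *Uty*, *Crebbp*, *Ep300* and *Ezhip* were named to define the lists. The genes and lists were chosen with earlier results of these data known. Alternatives covered peak thresholds, flank and window widths, overlap, the number of replicate 2 peaks, the control and leaving out each replicate.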

Additional observations from a re-analysis of the deposited data

How the results depend on the processing

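Of 50 alternative values, 29 stayed within the spread of the replicates or within 1.5 times the count. Among the 29 are counts of 0 that stricter settings could not change, as described below. At a fold enrichment of 3 or higher, at p of 0.001 or lower and at q of 0.05 or lower, the number of the 10 genes with a peak in both replicates went from 2 to 0 each time. Their mean number of peaks went from 5.5 to 0.5, 1 and 0, and the covered share from 0.101% to 0.00244%, 0.00619% and 0%. The q filter left 0 and 4 peaks in the replicate 1 and replicate 2 lists, and the fold filter 2040 and 522, so few peaks were left to count anywhere. With the replicate 2 list reduced to as many peaks as replicate 1, 1 gene had a peak in both replicates and the covered share was 0.0684%. With IgG as the control for replicate 1 the count was also 1 (*Arid1b*), *Smarca4* having no IgG-called peak. With a single replicate, which asks for a peak in that replicate alone, 4 to 5 genes had a peak (4 without replicate 1, 5 without replicate 2) and 0 to 1 had one within 1 kb of a start (1 without replicate 1). A count of 0 genes with a promoter peak in both replicates was given by 9 of 10 alternatives, windows of 2 kb and 5 kb included. The 3 thresholds, the smaller replicate 2 list and requiring the whole peak inside the window can only remove peaks. Their counts of 0 were therefore fixed in advance and say nothing about stability. The wider windows, the IgG control and the single replicates could have raised the count. In the wider list the count of 3 went to 0 under each of the 3 thresholds, to 6 with IgG, and to 8 to 17 with a single replicate. No paired analysis was possible because there was 1 condition, each H3K27me3 library having been set against its own control when peaks were called. The 13 peaks rested on a mean depth of 4 to 6.92 tags, so the presence or absence of a single peak at a gene is subject to counting error.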
